A study of Mus musculus with 41 samples.

Results

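How ageing changes the epithelium of the thymus was set against how it changes the rest of the thymic stroma, gene by gene. The quantity reported for each gene is a difference of differences on the log2 scale: the change in thymic epithelial cells (TEC) of middle-aged over young mice, minus the same change in non-epithelial stromal cells (nonTEC). It draws on 12 of the series' 41 arrays, 3 in each of 4 groups, and on the genes with a probe present in both fractions. There were 10543 such genes, of which 8487 had a mean above the median of all values, 6.73, in at least 1 of the 14 groups and were tested. A value above 0 means that the gene went up more, or down less, in TEC than in nonTEC.

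The thymus is the organ in which T cells mature. Its epithelium supplies the Notch ligands, chemokines and self-peptides that guide developing T cells, the cortex selecting them on class I and class II MHC and the medulla exposing them to antigens of other tissues under the control of Aire. Fibroblasts, endothelium and mural cells feed that epithelium with Wnt, fibroblast growth factor, bone morphogenetic protein and retinoid signals, and admit blood-borne precursors. The organ shrinks in early adult life, and both compartments are known to change as it does.

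All mice were male C57Bl/6. The middle-aged groups were unoperated mice of 9 to 12 months and the young groups unoperated mice of 5 to 6 weeks. TEC were sorted as CD45-EpCAM+ cells and nonTEC as CD45-EpCAM- cells from the same kind of enzymatic digest, CD45 being the common leukocyte antigen and EpCAM an epithelial adhesion molecule. The remaining arrays, of sham-operated and castrated middle-aged mice, entered the fit to estimate the spread, and the sham arrays were used once as a second middle-aged group. Whether the 3 arrays of a group are 3 animals is not in the labels, and the p-values therefore speak of array-to-array spread, which may be technical. In a sorted pool, fewer cells of a type and less RNA per cell cannot be told apart.

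Epithelial and fibroblast markers went with the gates, and some other lists did not. The mean log2 intensity over 8 epithelial markers was 10.14 to 10.74 on the middle-aged and 10.53 to 10.71 on the young TEC arrays, against 5.74 to 6.40 on the middle-aged and 6.74 to 7.27 on the young nonTEC arrays. Over 13 fibroblast markers it was 6.98 to 7.61 on the middle-aged and 6.88 to 6.95 on the young TEC arrays, against 11.89 to 12.44 on the middle-aged and 12.34 to 12.70 on the young nonTEC arrays. Pericyte and smooth muscle markers, however, had a mean of 8.94 to 9.19 on the young TEC and 8.74 to 9.07 on the young nonTEC arrays. The pan-leukocyte mean was 10.09 to 10.16 on the young TEC arrays, though these cells were sorted as CD45-. Judging by the array medians, each fraction was normalized on its own by the authors, so a level is comparable within a fraction, and the differences below are made of changes within fractions. The middle-aged TEC arrays agreed least with each other, with correlations of 0.854 to 0.941 over the 18386 probes present in both fractions. The correlations were 0.984 to 0.987 among the young TEC arrays, 0.971 to 0.979 among the middle-aged and 0.982 to 0.986 among the young nonTEC arrays.

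The ageing effect differed between epithelium and stroma for 953 of the 8487 genes, 11.2%, at an adjusted p under 0.05. In 660 of them (7.78%) the value was above 0 and in 293 (3.45%) below 0, and 2250 genes had an unadjusted p under 0.05. The median over all genes was 0.06. Most of the called genes had estimates of opposite sign: 494 were above 0 in TEC and below 0 in nonTEC, and 227 the reverse. A further 64 had both estimates above 0 with the larger in TEC, 59 both above 0 with the larger in nonTEC, 102 both below 0 with the larger fall in nonTEC, and 7 both below 0 with the larger fall in TEC. Choosing genes by a large difference favours opposite signs, so these counts do not show that ageing ran in opposite directions. Both effects passed the threshold in 55 of the 494 and 28 of the 227. The share of opposite signs among all genes is not given here. The difference was at least 2-fold (1 on the log2 scale) for 596 genes and at least 4-fold for 88.

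The called genes were spread over all expression levels. Among the 5891 genes whose mean lay above 6.73 in both fractions, 667 were called (11.3%). The share was 12.6% of 847 genes above it in TEC alone, 9.41% of 1126 above it in nonTEC alone and 11.7% of 623 above it in neither. The ageing effect of nonTEC passed the threshold on its own, without that of TEC, in 492 of the 953, that of TEC alone in 292, both in 100 and neither in 69.

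For 83 genes (0.978% of those tested) the effects had opposite signs and each passed the threshold by itself, 55 of them (0.648%) with the rise in TEC and 28 (0.33%) with the rise in nonTEC. Of these, 61 lay above 6.73 in both fractions. The count of 953 rests on the spread borrowed from all 41 arrays: with only the 12 unoperated arrays fitted, 114 genes passed, 112 of them among the 953, and 6 had opposite signs with both effects past the threshold. It was 585 without young TEC array 2 and 618 without young nonTEC array 3, and the 293 genes with a value below 0 became 558 without middle-aged TEC array 3. With same-numbered arrays of the fractions blocked within each age over the 12 unoperated arrays, 1 gene passed.

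**Figure D1:**
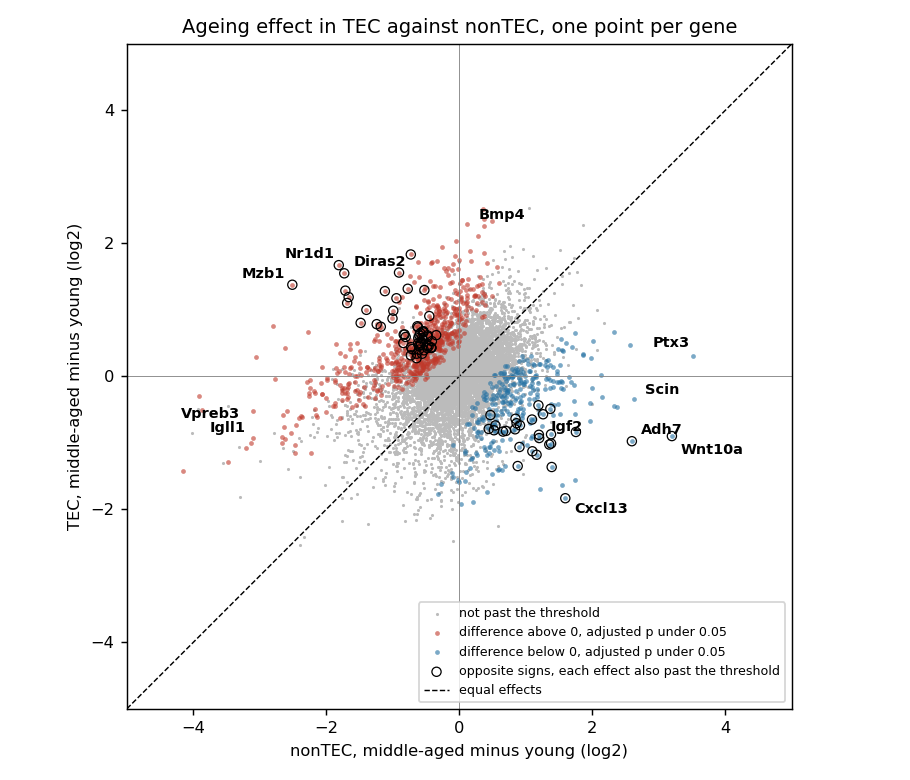
Ageing effect (middle-aged minus young, log2) of each of the 8487 genes in TEC, on the vertical axis, against nonTEC, on the horizontal axis. Red and blue points are the 660 and 293 genes whose effects differed, on either side of the dashed line of equal effects, and circled points are the 83 genes with opposite signs in which each effect passed the threshold.

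The largest difference in either direction belonged to Wnt10a, which encodes a secreted Wnt ligand of the canonical pathway known from skin and tooth. It read 8.42, 7.38 and 8.72 on the middle-aged and 8.68, 9.39 and 9.15 on the young TEC arrays, against 8.36, 8.07 and 9.34 on the middle-aged and 5.34, 5.21 and 5.62 on the young nonTEC arrays. The stromal arrays of the 2 ages were far apart and the epithelial ones overlapped slightly, with the middle-aged mean the lower. The TEC effect was -0.90 ± 0.31 and the nonTEC effect 3.20 ± 0.31, a difference of -4.10 ± 0.44 (SE, adjusted p = 6.92e-07), which is a 17.1-fold ratio between the fold changes. Among the 110 called genes named by the rule given under the processing, Wnt10a alone passed in all 30 alternative analyses.

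Adh7, a class IV alcohol dehydrogenase that oxidises retinol, followed the same course. Its values were 6.997, 5.35 and 7.82 on middle-aged and 7.78, 7.73 and 7.58 on young TEC arrays, against 9.44, 9.93 and 8.76 on middle-aged and 6.96, 6.81 and 6.58 on young nonTEC arrays. Every middle-aged nonTEC array lay above every young one, while in TEC the middle-aged array 2 was the low value and array 3 lay above the young arrays. The effects were -0.98 ± 0.33 in TEC and 2.60 ± 0.33 in nonTEC, and the difference -3.57 ± 0.47 (adjusted p = 7.77e-06).

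Cxcl13, the chemokine that draws B cells into follicles through the receptor Cxcr5, read 7.91, 5.61 and 7.77 in middle-aged and 8.89, 9.04 and 8.86 in young TEC, against 10.84, 11.83 and 11.47 in middle-aged and 9.74, 9.76 and 9.86 in young nonTEC. The ages did not overlap in either fraction, down in the epithelium and up in the stroma. The difference was -3.43 ± 0.78 (adjusted p = 0.00399), with array 2 the lowest of the middle-aged TEC arrays by over 2 log2 units.

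Hp, which encodes the haemoglobin-binding plasma protein haptoglobin, read 7.75, 7.44 and 7.84 in middle-aged and 8.98, 9.08 and 9.06 in young TEC, against 9.79, 10.93 and 10.12 in middle-aged and 9.66, 9.51 and 7.50 in young nonTEC. The ages were apart in both fractions, narrowly so in nonTEC, where young array 3 was the low one. Its difference was -2.75 ± 0.51 (adjusted p = 0.000612). Chst1, a sulfotransferase of keratan sulfate and of glycans that L-selectin reads, read 8.21, 7.54 and 8.90 in middle-aged and 9.35, 9.05 and 9.32 in young TEC, against 11.44, 11.53 and 10.61 in middle-aged and 9.71, 10.10 and 9.71 in young nonTEC. Its difference was -2.38 ± 0.31 (adjusted p = 7.77e-06) and the ages did not overlap in either fraction.

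The other genes of this direction with both effects past the threshold and a level above 6.73 in both fractions were Rpl7a (-2.59 ± 0.41), Sult5a1 (-2.34 ± 0.56) and Snurf (-2.23 ± 0.42). Rpl7a encodes a protein of the large ribosomal subunit, a family with many near-identical copies in the genome, so that other transcripts may share its probe. Sult5a1 is a cytosolic sulfotransferase. Snurf is read from the imprinted region that also holds Snrpn. In all 3 the arrays of the 2 ages were apart in TEC and in nonTEC.

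In the opposite direction, Diras2 had the largest difference among genes with opposite effects, both past the threshold, and a level above 6.73 in both fractions. It encodes a small GTPase of the Ras family. It read 12.11, 12.45 and 11.90 on middle-aged and 10.81, 10.49 and 10.51 on young TEC arrays, against 5.91, 6.23 and 7.33 on middle-aged and 8.20, 7.81 and 8.65 on young nonTEC arrays. The ages were apart in both fractions, and both of its probes had a difference above 0. The effects were 1.55 ± 0.29 in TEC and -1.73 ± 0.29 in nonTEC, and the difference 3.28 ± 0.41 (adjusted p = 6.21e-06).

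Rgcc, a regulator of the cell cycle induced by complement, read 11.40, 11.12 and 10.74 in middle-aged and 9.78, 10.02 and 9.61 in young TEC, against 8.56, 9.71 and 9.44 in middle-aged and 10.65, 10.03 and 10.37 in young nonTEC, a difference of 2.40 ± 0.41 (adjusted p = 0.000239). Ngfr, the low-affinity receptor of neurotrophins, read 9.24, 9.68 and 9.44 in middle-aged and 8.17, 8.22 and 8.44 in young TEC, against 7.95, 7.73 and 8.28 in middle-aged and 8.89, 8.69 and 9.21 in young nonTEC. For both genes the epithelial arrays of middle-aged mice lay wholly above those of young mice and the stromal ones wholly below. The difference of Ngfr was 2.12 ± 0.29 (adjusted p = 1.51e-05).

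Fjx1, a homologue of the fly planar polarity gene four-jointed, had a difference of 2.09 ± 0.32 (TEC 1.32, nonTEC -0.77, adjusted p = 8.47e-05). Notch3, a Notch receptor best known from the mural cells of arteries, had 1.93 ± 0.33 (TEC 0.75, nonTEC -1.18, adjusted p = 0.000239). Snhg18, a noncoding host gene of a small nucleolar RNA, had 1.88 ± 0.35, and Rilp, which links the GTPase Rab7 to the movement of lysosomes, had 1.82 ± 0.28. In these 4 genes too the ages did not overlap in either fraction. Lcn2, a siderophore-binding lipocalin made by granulocytes and by inflamed epithelia, had a larger difference, 3.003 ± 0.53 (adjusted p = 0.000379), but its middle-aged nonTEC array 3, at 9.00, lay above young nonTEC array 3, at 8.61.

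**Figure D2:**
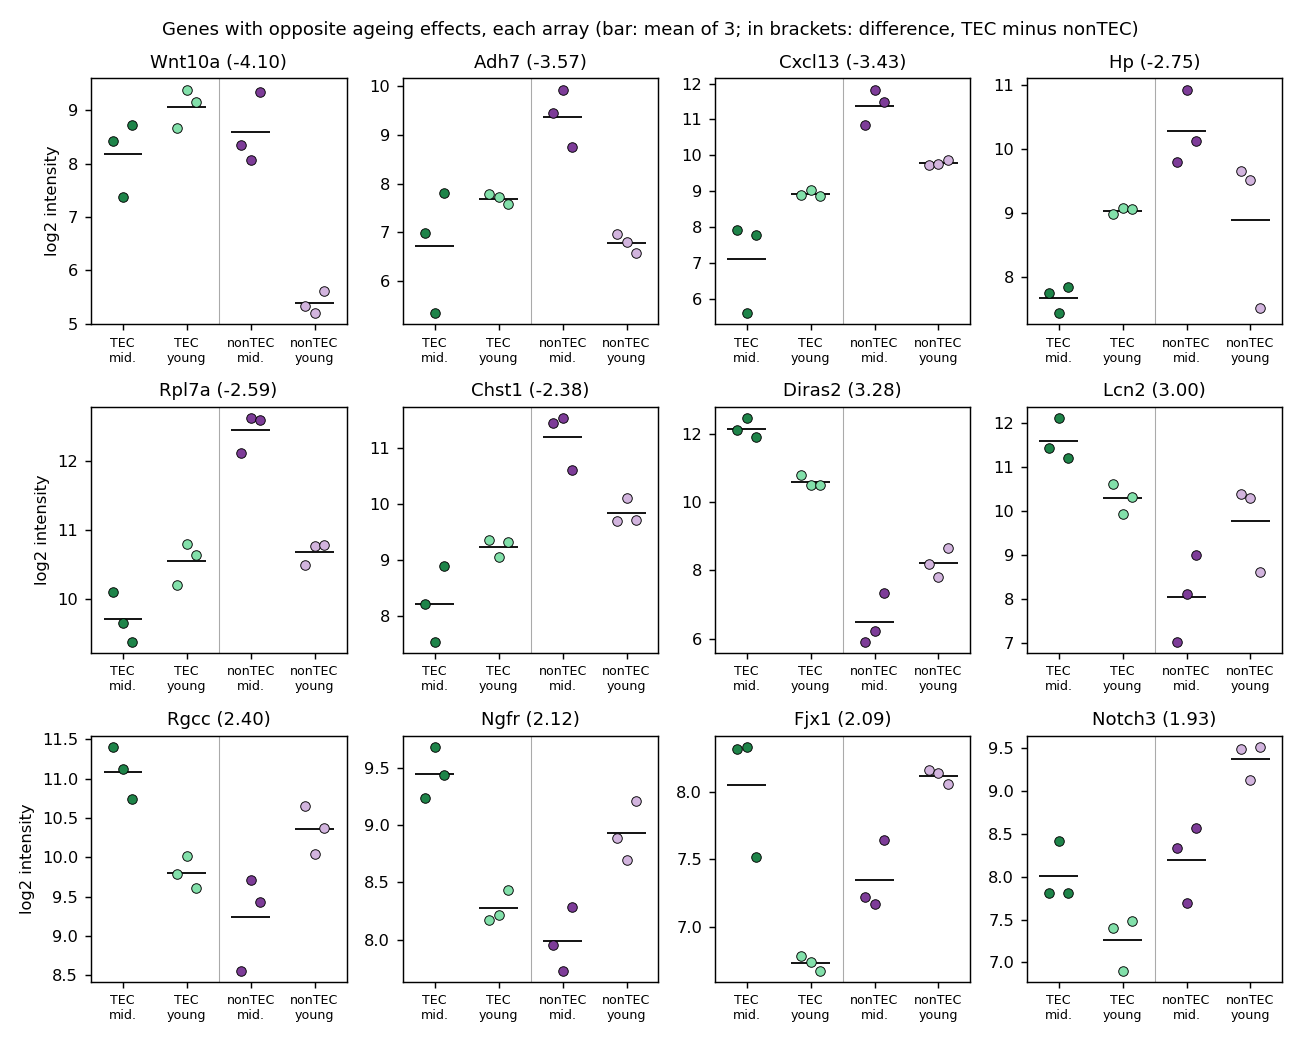
Log2 intensity on each of the 12 arrays (points) with the mean of each group (bars) for the 6 genes of largest difference in each direction whose ageing effects had opposite signs, each past the threshold, and whose level lay above 6.73 in both fractions. TEC groups stand left of nonTEC groups and middle-aged ("mid.") left of young. In the first 6 panels the middle-aged mean is below the young mean in TEC and above it in nonTEC, and in the other 6 it is the reverse.

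A second kind of difference was a rise in the stroma that the epithelium did not show. Scin, which severs actin filaments, had the smallest p of the 24 genes of largest difference. It read 9.63, 9.51 and 10.05 in middle-aged and 10.19, 10.16 and 9.88 in young TEC, against 11.04, 11.16 and 10.47 in middle-aged and 8.43, 8.30 and 8.04 in young nonTEC. The nonTEC arrays of the 2 ages lay over 2 log2 units apart, and the TEC effect, -0.35 ± 0.17, did not pass. The difference was -2.98 ± 0.24 (adjusted p = 7.55e-10).

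Ptx3, a long pentraxin of innate immunity and of matrix assembly, read 4.50, 4.41 and 5.24 in middle-aged and 4.43, 4.55 and 4.25 in young TEC, against 11.85, 12.13 and 10.68 in middle-aged and 8.10, 8.81 and 7.21 in young nonTEC. It stayed below 6.73 on all 6 TEC arrays, and its difference was -3.20 ± 0.56 (adjusted p = 0.000353). Aox3, an aldehyde oxidase, had a difference of -2.83 ± 0.36 (TEC -0.46, nonTEC 2.37). The Ras exchange factor gene Rasgrf1, at -2.77 ± 0.51, and the protocadherin gene Pcdh20, at -2.64 ± 0.45, had nonTEC effects of 2.32 and 1.96. Middle-aged nonTEC array 3 was the lowest of its group for both, at 5.43 and 7.27, and still above the young arrays. Sppl2a, an intramembrane protease known to cleave the invariant chain remnant, and Cap1, which binds actin and adenylyl cyclase, had differences of -3.18 ± 0.85 and -2.91 ± 0.70. The middle-aged TEC arrays were widely spread for both: Sppl2a read 8.45, 5.89 and 4.85 on the 3 middle-aged TEC arrays and Cap1 10.07, 8.75 and 6.43.

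The converse, a rise in the epithelium with no stromal effect past the threshold, was seen in several genes of signalling. Bmp4, a bone morphogenetic protein made by thymic stroma and endothelium that supports epithelial Foxn1, read 8.26, 8.23 and 8.05 in middle-aged and 6.05, 5.91 and 5.71 in young TEC, against 11.56, 11.97 and 11.90 in middle-aged and 11.64, 11.68 and 11.75 in young nonTEC. The epithelial arrays of the 2 ages were about 2 log2 units apart and the stromal ones overlapped. Its difference was 2.17 ± 0.42 (adjusted p = 0.000868). Il33, an alarmin cytokine stored in the nuclei of barrier and stromal cells, had a TEC effect of 2.04 ± 0.35, a nonTEC effect of -0.05 ± 0.35 and a difference of 2.09 ± 0.50 (adjusted p = 0.00586).

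Cxcl12, the ligand of Cxcr4 that holds immature thymocytes in the cortex, had a TEC effect of 1.49 ± 0.38 and a nonTEC effect of -0.60 ± 0.38, with a difference of 2.09 ± 0.54 (adjusted p = 0.0111). With the mean of its 3 probes it did not pass, and its lowest estimate over the alternatives was 0.60. Cx3cl1, a membrane-bound chemokine, had a difference of 1.20 ± 0.23, from 1.30 in TEC and 0.10 in nonTEC. Trp63, the transcription factor that maintains epithelial progenitors, read 12.29, 12.66 and 11.45 in middle-aged and 11.22, 11.14 and 11.28 in young TEC, which did not overlap, and its difference was 0.90 ± 0.27 (adjusted p = 0.0291).

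Of 21 immediate early genes, which cells switch on within minutes of a stimulus, 4 had a higher ageing effect in TEC and 0 a lower one, against 7.78% and 3.45% of all genes, and the median over the list was 0.17. The same 2 shares are the background of every list count that follows. Here and below a list is counted over its tested members, and listed genes without a probe in both fractions or under the filter are left out. They were Fosb (1.71 ± 0.36), Klf2 (1.41 ± 0.44), the mRNA-destabilising factor Zfp36 (1.15 ± 0.20) and the cytokine signalling inhibitor Socs3 (0.80 ± 0.26). Zfp36 read 14.48, 14.58 and 14.51 in middle-aged and 13.31, 13.31 and 13.001 in young TEC, against 14.53, 14.48 and 14.54 in middle-aged and 14.60, 14.40 and 14.05 in young nonTEC. The young TEC arrays were thus the low group and the other 3 groups lay near the highest value on any array, 14.9. The family's best known members did not pass: Fos was at -0.48, Jun at 0.60 and Egr1 at 0.52.

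Several of the largest values above 0 belonged to genes of blood cells, and most of these fell in the stroma. In the B lineage list 7 of 11 members were higher and 0 lower, against 7.78% and 3.45% of all genes, and the median was 1.68. Of the 11, only 1 had a mean above 6.73 in both fractions, and 9 or 10 lay below it on each middle-aged nonTEC array. A gene that enters through a high young nonTEC mean leans above 0 by the filter itself, so the count is no separate evidence. Vpreb1, Vpreb3 and Igll1 encode the surrogate light chain and its partner in precursor B cells. Vpreb3 read 5.95, 5.68 and 7.03 in middle-aged and 6.60, 6.27 and 6.70 in young TEC, against 4.55, 4.63 and 4.57 in middle-aged and 9.22, 8.81 and 7.49 in young nonTEC. Every young nonTEC array lay above every array of the other 3 groups, and the difference was 3.62 ± 0.48 (adjusted p = 9.85e-06). Igll1 had 3.36 ± 0.48 and Vpreb1 3.35 ± 0.46, and Vpreb1 lay below 6.73 on every array of the groups other than young nonTEC.

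Mzb1, a chaperone of marginal zone B and plasma cells, differed in that TEC moved as well. It read 6.76, 6.47 and 6.69 in middle-aged and 5.59, 5.33 and 4.86 in young TEC, against 5.02, 6.51 and 5.31 in middle-aged and 8.77, 8.53 and 7.06 in young nonTEC. The ages were apart in both fractions, with the middle-aged arrays higher in TEC and lower in nonTEC, and the difference was 3.89 ± 0.64 (adjusted p = 0.000172). Pik3ap1, an adaptor of B cell receptor signalling, had 2.79 ± 0.38 (TEC 1.10, nonTEC -1.69). Ltb4r1, the leukotriene B4 receptor of granulocytes, had 2.86 ± 0.49, and Tenm4, a teneurin of cell adhesion, 2.95 ± 0.35.

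Of 17 myeloid and granulocyte genes 5 were higher and 0 lower, with a median of 1.72. Chil3, a chitinase-like protein of macrophages and neutrophils, read 8.72, 6.99 and 8.22 in middle-aged and 6.81, 7.18 and 7.65 in young TEC, against 4.46, 4.60 and 7.82 in middle-aged and 9.50, 9.33 and 6.45 in young nonTEC. Array 3 of each stromal group went against the other 2, so that the ages overlapped there, and the difference was 3.56 ± 0.85 (adjusted p = 0.00619). The list's other called members were the granule protein gene Ngp (2.57 ± 0.85), the ficolin gene Fcnb (2.19 ± 0.65), the lysozyme gene Lyz1 (1.72 ± 0.51) and Pglyrp1 (2.19 ± 0.45), a peptidoglycan recognition protein. Ngp and Fcnb lay below 6.73 on all 6 TEC arrays, so their differences show the stromal change against dim epithelial signals. In young nonTEC Fcnb read 8.39, 8.19 and 4.83, the third array far below the others, and neither gene passed without young nonTEC array 1 (adjusted p = 0.12 for Ngp and 0.117 for Fcnb) or without young nonTEC array 2 (0.134 and 0.0985). Chil4, a relative of Chil3 outside the list, had a difference of 3.05 ± 0.71. Without the arrays numbered 3 of both nonTEC groups, 757 genes passed in place of 953 and 54 in place of 83 had opposite signs with both effects past the threshold, an analysis added after the data had been seen.

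The pan-leukocyte list gave 5 higher of 9 and 0 lower, with a median of 1.42: the Wiskott-Aldrich gene Was (2.21 ± 0.59), the phosphatase gene Ptpn6 (1.96 ± 0.39), Cd52 (1.74 ± 0.48), Arhgdib (1.68 ± 0.26) and Rac2 (1.32 ± 0.42). Its mean level was 9.02 to 10.04 on the middle-aged and 10.09 to 10.16 on the young TEC arrays, against 7.52 to 8.53 on the middle-aged and 9.97 to 10.27 on the young nonTEC arrays. Of its 9 members, 1 lay below 6.73 on each TEC array, 2 to 4 on each middle-aged nonTEC array and 0 on the young nonTEC arrays. Of 9 thymocyte genes 1 was higher, Cd8b1 (1.14 ± 0.28), and 0 lower, with a median of 1.27. Their mean was 6.51 to 7.31 on middle-aged and 6.94 to 7.12 on young TEC arrays, against 7.82 to 8.54 on middle-aged and 9.35 to 10.25 on young nonTEC arrays.

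All leukocyte lists thus stood lower on middle-aged than on young nonTEC arrays, with the exception of the myeloid list, where array 3 of the middle-aged group, at 8.66, lay above array 3 of the young group, at 8.30. With each array's pan-leukocyte mean as a covariate, with a slope for each fraction, 251 genes passed in place of 953, 197 above 0 and 54 below, and 30 of the 110 named genes kept their call. Wnt10a (adjusted p = 0.000882), Scin (0.00174), Vpreb3 (0.00081), Mzb1 (0.00866), Nr1d1 (0.0101), Ngfr (0.0111), Fjx1 (0.0111), Igf2 (0.0271), Adh7 (0.0305), Bmp4 (0.0271) and Il33 (0.0414) were among those 30. Diras2 (0.0892), Lcn2 (0.155), Rgcc (0.177) and Cxcl13 (0.24) were not. The pan-leukocyte mean did not overlap between the ages in either fraction, so the covariate and age cannot be fully told apart. A call lost with the covariate, here and below, need not mean a smaller difference. For the genes just named as lost the estimates were smaller, at 1.76 for Diras2, 2.08 for Lcn2, 1.44 for Rgcc and -2.59 for Cxcl13.

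**Figure D3:**
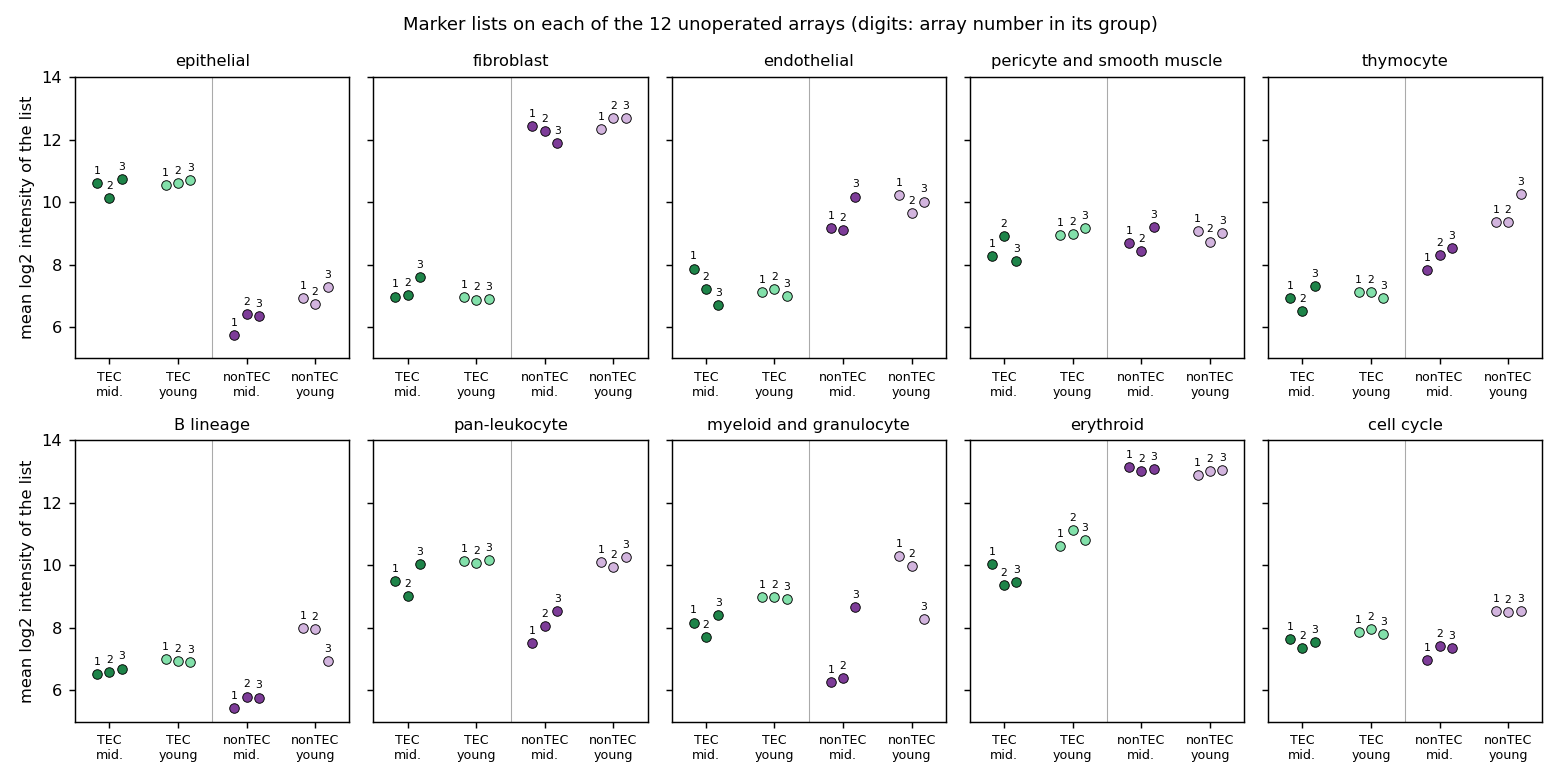
Mean log2 intensity over the tested members of 10 marker lists on each of the 12 unoperated arrays, with the array's number in its group above each point. TEC groups stand left of nonTEC groups and middle-aged ("mid.") left of young. The pan-leukocyte mean is 7.52 to 8.53 on middle-aged and 9.97 to 10.27 on young nonTEC arrays.

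Of 10 genes of class II antigen presentation 6 had a higher ageing effect in TEC and 0 a lower one. Class II molecules show peptides to CD4 T cells, are made by TEC and by leukocytes, and are switched on together by the coactivator Ciita, which acts on a shared promoter module whose last element is an inverted CCAAT box bound by NF-Y. The median over the 10 was 0.91. The upstream bases of 4 members are given so that called and uncalled members can be compared in that module, which was not used to define the list. They run 5′ to 3′ over the 150 bases before the RefSeq start (GRCm38.p6), with the 6 letters GATTGG, or their reverse complement CCAATC, in capitals.
H2-Oa, chr17:34092229-34092378, plus strand: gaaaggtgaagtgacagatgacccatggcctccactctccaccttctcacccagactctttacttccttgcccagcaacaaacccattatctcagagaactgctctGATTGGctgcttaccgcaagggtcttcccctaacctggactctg
H2-Eb1, chr17:34305717-34305866, plus strand: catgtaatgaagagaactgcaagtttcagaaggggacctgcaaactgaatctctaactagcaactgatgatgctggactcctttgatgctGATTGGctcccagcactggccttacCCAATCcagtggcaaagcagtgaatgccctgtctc
H2-DMb1, chr17:34153041-34153190, plus strand: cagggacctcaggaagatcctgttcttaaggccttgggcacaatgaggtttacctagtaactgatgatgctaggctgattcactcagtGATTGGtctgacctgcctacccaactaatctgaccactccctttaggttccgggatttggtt
H2-Aa, chr17:34287824-34287973, minus strand: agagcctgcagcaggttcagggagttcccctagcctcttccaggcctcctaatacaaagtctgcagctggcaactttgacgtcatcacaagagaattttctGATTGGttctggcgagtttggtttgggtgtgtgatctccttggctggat

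Those letters stand on the gene's strand with their first base 44 (H2-Oa), 60 (H2-Eb1), 62 (H2-DMb1) and 49 (H2-Aa) bases before the start, and H2-Eb1 has the reverse complement as well, at 35. RefSeq promoters were at hand for 7 of the 10 members, and 6 of these hold the letters on either strand within 150 bases, against 12.6% of all 27025 genes with a promoter there. The exception was H2-DMa, at both of its starts. H2-Oa, H2-DMa, H2-Eb1 and H2-DMb1 were called, and H2-Ob, H2-DMb2 and H2-Aa were not. The match describes letters and is not a measured binding site, and H2-Ab1 is named only.

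Cd74, the invariant chain that guides class II to its compartment, read 14.52, 14.55 and 14.52 in middle-aged and 14.28, 14.44 and 14.44 in young TEC, against 8.90, 10.09 and 10.76 in middle-aged and 11.16, 11.03 and 12.44 in young nonTEC. The epithelial arrays sat near the top of the scale at both ages, and the stromal arrays did not overlap. Its difference was 1.77 ± 0.40 (adjusted p = 0.00399). H2-Ab1, a beta chain of the classical class II molecule, had 1.23 ± 0.35, H2-Oa 1.12 ± 0.34 and H2-DMa 1.05 ± 0.34, the last 2 encoding chains of the H2-O and H2-M molecules that control peptide loading. H2-Eb1 had 0.99 ± 0.28 and H2-DMb1 0.80 ± 0.27. H2-Aa had -0.85 ± 1.09 and did not pass. None of the 4 named members passed with the pan-leukocyte covariate. Their estimates there were 0.40 for Cd74, 0.64 for H2-Ab1, -0.16 for H2-Oa and -0.21 for H2-DMa. The count of 6 was 5 after quantile normalization of all arrays and 4 after centring each array on its median.

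Some proliferation genes were called, all with values above 0. Of 22 cell cycle genes 8 were higher and 0 lower, with a median of 0.96. Tk1, the S-phase thymidine kinase, read 7.63, 8.43 and 7.90 in middle-aged and 8.10, 8.26 and 8.13 in young TEC, against 5.71, 6.10 and 6.48 in middle-aged and 8.42, 8.40 and 8.22 in young nonTEC. The stromal ages were apart and the epithelial ones overlapped, and the difference was 2.08 ± 0.38 (adjusted p = 0.000492). The spindle checkpoint kinase gene Bub1b (1.55 ± 0.39), the mitotic kinase gene Aurkb (1.54 ± 0.46) and the ribonucleotide reductase gene Rrm2 (1.53 ± 0.45) were called too.

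The mean over the cell cycle list was 7.35 to 7.63 on middle-aged and 7.81 to 7.97 on young TEC arrays, against 6.98 to 7.41 on middle-aged and 8.51 to 8.56 on young nonTEC arrays. It was thus lower at the later age on every array of both fractions, and by more in the stroma. Of 35 replication-dependent histone genes 9 were higher and 0 lower, with a median of 0.54, and H2A genes led: H2ac11 (2.07 ± 0.56), H2ac15 (1.78 ± 0.56), H2ac12 (1.74 ± 0.53) and H2ac20 (1.55 ± 0.38). These genes are near-identical copies, so their probes may read each other's transcripts. Of the 8 cell cycle and histone genes named, 0 passed with the pan-leukocyte covariate. Their estimates there ran from -0.63 (Rrm2) to 0.46 (H2ac11), with Tk1 at 0.22. The cell cycle count of 8 was 4 after centring each array on its median.

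Several epithelial genes differed as well. Krt8, a keratin of simple epithelia, read 13.27, 12.73 and 13.45 in middle-aged and 13.36, 13.33 and 13.34 in young TEC, against 7.41, 9.001 and 8.69 in middle-aged and 9.80, 9.63 and 10.74 in young nonTEC. The ages overlapped in TEC, and the middle-aged nonTEC arrays lay below the young. Krt8 had a difference of 1.49 ± 0.38, Krt18 1.62 ± 0.36 and the epithelial factor Elf3 1.18 ± 0.27, and with Trp63 they made 4 higher of 8 and 0 lower, with a median of 0.76. Aire, the regulator of tissue antigens in the medulla, read 11.82, 11.50 and 12.51 in middle-aged and 12.31, 12.18 and 12.06 in young TEC, against 5.05, 4.74 and 5.93 in middle-aged and 7.57, 6.77 and 8.17 in young nonTEC. Its difference of 2.02 ± 0.42 (adjusted p = 0.00186) came from the stromal arrays, on which it read at most 8.17. Fezf2 (1.42 ± 0.32), a second regulator of tissue antigens, the claudin gene Cldn4 (1.51 ± 0.44) and the casein gene Csn2 (1.57 ± 0.39), an Aire-dependent antigen, likewise had nonTEC effects that passed, below 0, and TEC effects that did not. The epithelial marker mean, given above for each group, was lower on every middle-aged than on every young nonTEC array, and its part in these values was not tested.

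Of 16 medullary genes 3 were higher and 1, the claudin gene Cldn3 (-1.38 ± 0.41), lower, with a median of 0.11. Of 11 cortical genes 5 were higher and 0 lower, with a median of 1.29, and this list behaved unevenly. Bmp4 and, on its probe of highest mean, Cxcl12 went up in TEC. By contrast, Tbata (1.81 ± 0.49), a spermatogenesis-associated gene known from cortical epithelium, had effects of -0.06 in TEC and -1.88 in nonTEC. Cd83, which stabilises class II on cortical epithelium, had a difference of 1.86 ± 0.55 with a TEC effect of 0.63 that did not pass. The chemokine gene Ccl25 had 1.14 ± 0.62 (adjusted p = 0.241), the thymoproteasome gene Psmb11 1.21 ± 0.63 and the cytokine gene Il7 -0.65 ± 0.28, none past the threshold.

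Matrix genes leaned above 0. Of 35 tested 8 were higher and 1 lower, the median was 0.78, and 26 of the 35 values were above 0, against 4603 of all 8487. Col4a2, a chain of basement membrane collagen, read 10.35, 11.62 and 10.96 in middle-aged and 10.79, 10.03 and 10.43 in young TEC, against 12.50, 11.96 and 11.85 in middle-aged and 13.32, 13.23 and 13.55 in young nonTEC. The stromal arrays of middle-aged mice all lay below those of young mice, while in TEC the ages overlapped. Its difference was 1.82 ± 0.31 (adjusted p = 0.000245).

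The fibrillar collagen gene Col3a1 had a difference of 1.89 ± 0.42, with TEC values of 4.39 to 5.17 in middle-aged and 4.29 to 4.81 in young mice, at the floor of the scale, against 9.74 to 10.50 in middle-aged and 11.72 to 12.18 in young nonTEC. Elastin, Eln, had 1.36 ± 0.30, and Col15a1, of vascular basement membranes, 1.70 ± 0.57. Col3a1, Col4a2 and Eln kept their calls with the pan-leukocyte covariate. Col15a1 did not (adjusted p = 0.0697), although its estimate there was larger, 2.68, and it passed in 9 of the 30 alternatives. The lower gene was the metalloproteinase inhibitor gene Timp3, at -1.10 ± 0.20. In the fibroblast list, which shares Col3a1, 1 of 13 was higher and 0 lower, with a median of 0.56 and 11 of the 13 values above 0. Its receptor gene Pdgfra had 1.23 ± 0.76 (adjusted p = 0.311).

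The endothelial list had 1 call in each direction, while 11 of its 12 values were above 0, against 4603 of all 8487. Of its 12 genes 1 was higher, the TGF-beta coreceptor gene Eng (2.02 ± 0.50), and 1 lower, the angiopoietin receptor gene Tek (-1.73 ± 0.40), with a median of 0.75. Tek read 6.83, 5.94 and 6.79 in middle-aged and 7.20, 7.16 and 7.13 in young TEC, against 10.30, 10.37 and 9.18 in middle-aged and 9.01, 9.01 and 8.57 in young nonTEC, where every middle-aged array lay above every young one. Pecam1 had 1.22 ± 0.92 and did not pass. Of 8 mural genes 2 were higher, Notch3 and the adhesion molecule gene Mcam (1.61 ± 0.39), and 2 lower, smooth muscle actin Acta2 (-1.52 ± 0.37) and smooth muscle myosin Myh11 (-1.50 ± 0.47), with a median of -0.97. Acta2 had a TEC effect of -1.06 ± 0.26 and a nonTEC effect of 0.46 ± 0.26.

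Globin genes fell in TEC and stayed near the top of the scale in nonTEC. Of 5 erythroid genes 3 were lower and 0 higher, with a median of -1.54. Hba-a1 read 12.32, 11.81 and 10.69 in middle-aged and 13.22, 13.40 and 12.96 in young TEC, against 14.57, 14.64 and 14.66 in middle-aged and 14.60, 14.69 and 14.59 in young nonTEC. Its difference was -1.58 ± 0.43, with Hbb-bs at -1.54 ± 0.50 and Hbb-bt at -1.66 ± 0.51. These copies are near-identical, and the highest value on any array was 14.9, close to all 6 nonTEC values. Hba-a1 passed in 26 of the 30 alternatives, Hbb-bs in 14 and Hbb-bt in 16. Neither Hbb-bs nor Hbb-bt passed without middle-aged TEC array 2 or without middle-aged TEC array 3.

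Among 23 Wnt pathway genes 3 were higher and 2 lower, with a median of -0.02. The counts were 2 higher and 3 lower after quantile normalization of all arrays, and 1 higher and 3 lower after centring each array on its median. Beside Wnt10a, the ligand gene Wnt6 was lower at -1.77 ± 0.31 (adjusted p = 0.000379). Wnt6 read 7.28, 7.59 and 7.40 in middle-aged and 6.85, 7.80 and 7.87 in young TEC, against 6.41, 6.30 and 7.18 in middle-aged and 4.66, 5.01 and 5.17 in young nonTEC. Both ligands thus rose in the stroma, where the ages did not overlap, and overlapped in the epithelium. The higher members were the feedback inhibitor gene Nkd1 (1.31 ± 0.39), the receptor gene Fzd3 (0.93 ± 0.29) and Porcn (0.84 ± 0.27), which encodes the acyltransferase of Wnt ligands. Nkd1 and Fzd3 had TEC effects of 1.26 ± 0.28 and 1.27 ± 0.21. Fzd3 passed in 13 of the 27 alternatives that tested it. Wnt4, the ligand made by TEC that supports Foxn1, had 0.01 ± 0.33 and did not pass.

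Of 22 epithelial growth factor and BMP genes 2 were higher, Bmp4 and Tgfb1 (1.39 ± 0.35), and 2 lower, the insulin-like growth factor gene Igf2 and the BMP antagonist gene Grem1 (-1.26 ± 0.39), with a median of -0.36. The epithelial mitogen genes Fgf7 and Fgf10 had -0.50 ± 0.44 and -0.57 ± 0.74, their receptor gene Fgfr2 0.14 ± 0.21 and the hormone gene Fgf21 0.32 ± 0.30, none past the threshold. Fgf21 had effects of -0.87 in TEC and -1.19 in nonTEC, each past the threshold within its fraction. Of 15 genes of retinoid and aldehyde metabolism, Adh7 and Aox3 were lower and the retinol dehydrogenase gene Rdh12 (1.09 ± 0.28) higher, with a median of -0.34. Of 24 chemokine genes 3 were higher and 2 lower, with a median of 0.22.

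Imprinted genes of juvenile growth leaned below 0: of 8 tested 3 were lower and 0 higher, and the median was -0.99. Igf2, a fetal growth factor read from the paternal allele, read 9.16, 8.89 and 9.59 in middle-aged and 10.0001, 9.71 and 9.64 in young TEC, against 11.30, 11.55 and 11.71 in middle-aged and 10.31, 10.45 and 10.02 in young nonTEC. The ages did not overlap in either fraction, by a narrow margin in TEC. The difference was -1.83 ± 0.25 (adjusted p = 1.14e-05). Cdkn1c, a cyclin-dependent kinase inhibitor read from the maternal allele, had -1.65 ± 0.29 (TEC -0.74, nonTEC 0.91), and Dlk1, a Notch-like inhibitor of fat cell formation, -1.42 ± 0.42 (TEC -1.24, nonTEC 0.17).

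In the circadian clock list 1 of 15 was higher and 1 lower, with a median of -0.15. Nr1d1, the nuclear receptor that represses Bmal1, read 6.98, 6.57 and 7.37 in middle-aged and 5.26, 5.68 and 4.97 in young TEC, against 5.23, 5.05 and 4.50 in middle-aged and 6.54, 6.28 and 7.40 in young nonTEC. Per2, a negative limb gene of the same clock, read 7.93, 8.90 and 8.60 in middle-aged and 8.58, 7.73 and 7.71 in young TEC, against 9.69, 8.99 and 9.17 in middle-aged and 7.15, 6.99 and 6.01 in young nonTEC. In the stroma the age high for one gene was thus the age low for the other, and the differences were 3.49 ± 0.56 (adjusted p = 0.000126) and -2.09 ± 0.41 (adjusted p = 0.00094). The hour at which tissue was taken is not given in the sources used here, and its part in these values was not tested.

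Of 28 heat shock and chaperone genes 2 were lower and 0 higher, yet 25 of the 28 values were below 0 and the median was -0.76, against 3884 of 8487 below 0 for all genes. Hsph1, a co-chaperone of Hsp70, read 11.45, 11.41 and 11.54 in middle-aged and 11.91, 12.05 and 11.67 in young TEC, against 13.74, 13.12 and 13.68 in middle-aged and 12.85, 12.44 and 12.11 in young nonTEC. Its difference was -1.46 ± 0.39 (adjusted p = 0.0133) and that of the small heat shock protein gene Hspb8 -1.16 ± 0.24 (adjusted p = 0.00203). In both, the stromal arrays of middle-aged mice all lay above those of young mice. Hsp90aa1, the inducible cytosolic Hsp90, had the lowest value of the list, -2.83 ± 0.97, and did not pass.

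**Figure D4:**
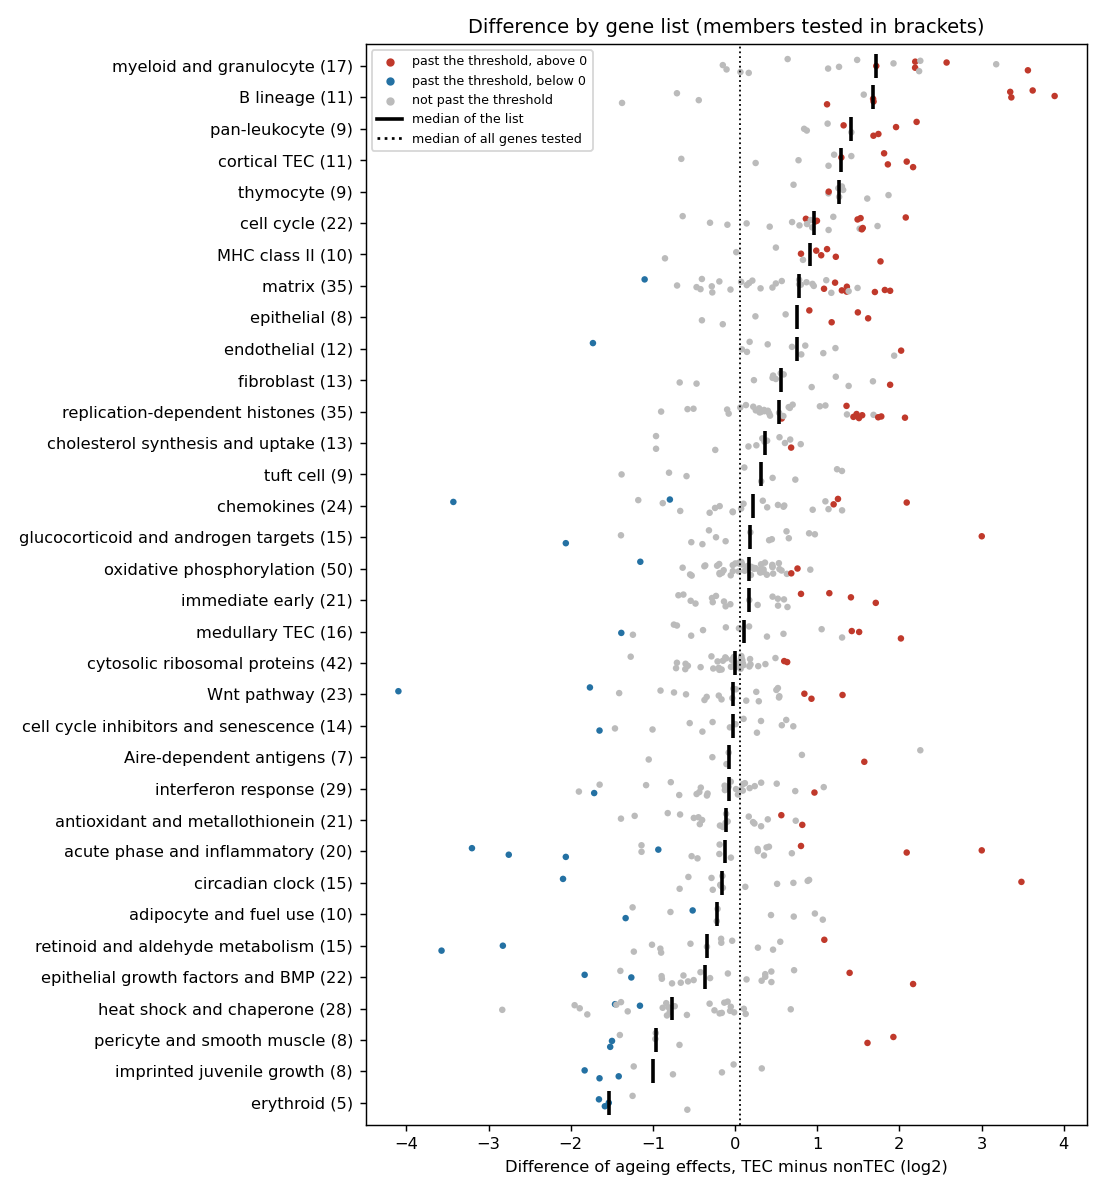
Difference of ageing effects (TEC minus nonTEC, log2) for each tested member of 34 gene lists, in order of their medians (black bars), with the median of all genes, 0.06, dotted. Coloured points passed the threshold. The leukocyte, cortical and cell cycle lists lie at the upper end, from a median of 1.72, and the heat shock, mural, imprinted and erythroid lists at the lower end, to -1.54.

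The sham-operated middle-aged mice of days 4 and 7 offer a second set of later arrays in both fractions, 6 in TEC and 5 in nonTEC, set against the same young arrays, so the comparisons are not independent. With them, 949 genes passed, 551 above 0 and 398 below, and 24 had opposite signs with both effects past the threshold, counts that do not say which genes passed. Wnt10a had -3.88 ± 0.39 with sham arrays and -4.10 ± 0.44 with unoperated ones, Adh7 -3.24 ± 0.41 and -3.57 ± 0.47, and Scin -2.85 ± 0.21 and -2.98 ± 0.24. Diras2 had 3.18 ± 0.36 with sham and 3.28 ± 0.41 with unoperated arrays, and Igf2 -1.72 ± 0.22 and -1.83 ± 0.25.

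Other genes had smaller values with sham arrays. Sppl2a had -1.69 ± 0.75 (adjusted p = 0.154), Cap1 -1.66 ± 0.62 (0.0819), Snhg18 0.79 ± 0.31 (0.0985), Nkd1 0.28 ± 0.34 (0.693), Fzd3 0.29 ± 0.26 (0.558), Socs3 0.30 ± 0.23 (0.461), Klf2 0.81 ± 0.39 (0.188) and Eng 0.67 ± 0.44 (0.378), which did not pass there. Ngfr (1.21 ± 0.26), Bmp4 (1.45 ± 0.37) and Il33 (1.38 ± 0.44) did. Chil3 and Chil4 had larger values than with unoperated arrays, 4.99 ± 0.75 and 4.199 ± 0.63. None of these changes between the sets of arrays was tested.

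**Figure D5:**
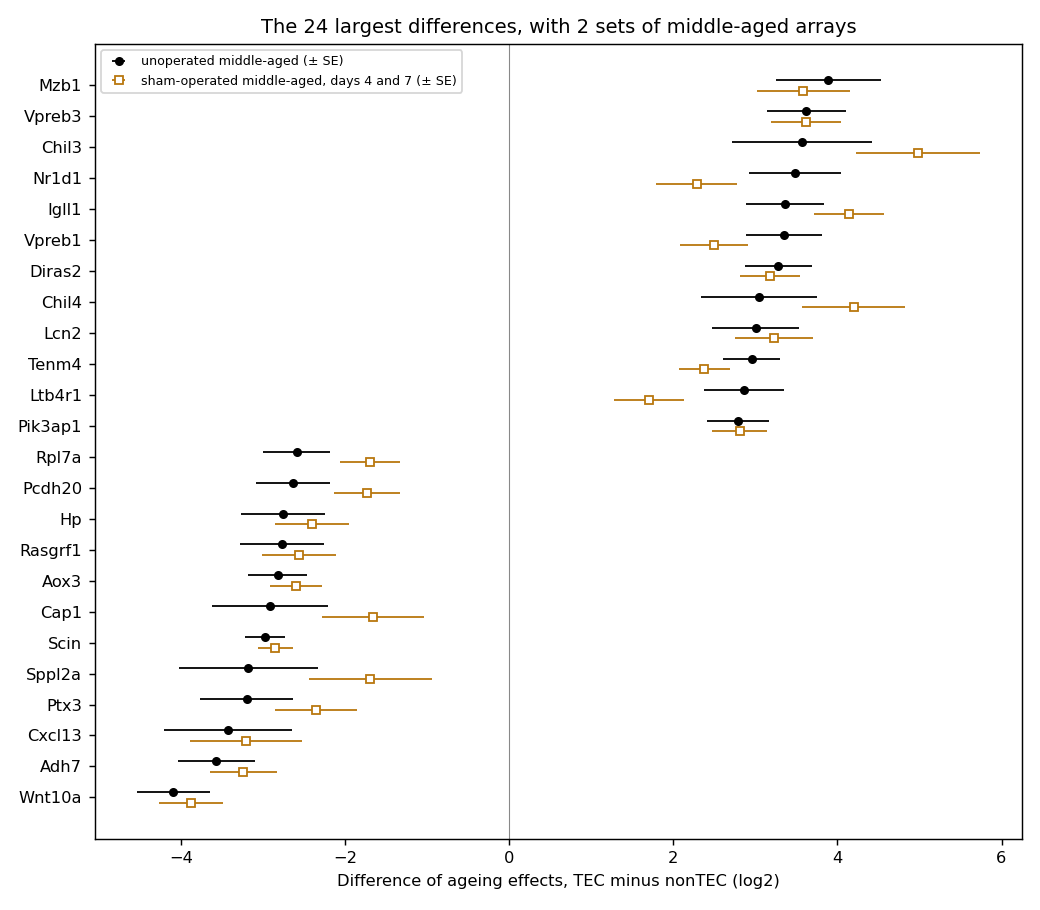
Difference of ageing effects (TEC minus nonTEC, log2, ± SE) for the 12 genes of largest difference in each direction, with unoperated middle-aged arrays (filled circles) and with sham-operated middle-aged arrays of days 4 and 7 (open squares), each set against the same young arrays. Wnt10a lies at the lower end with both sets, and Sppl2a and Cap1 do not pass with sham arrays.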

How the data were processed

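The authors deposited 1 table of normalized log2 intensities for the 41 Illumina arrays, and each probe has values for a whole fraction or for no array of it. No source used here states the logarithm's base, which was taken as 2 from the range of 4.17 to 14.9. Separate normalization of the fractions by the authors was read from the array medians, 6.68 for every TEC array against 6.81 to 6.82 for nonTEC. The submitters' processing notes name limma. How background was corrected and probes were filtered is not stated there. Of 24671 probes 18386 were present in both fractions, and 15817 of these had 1 listed gene. Symbols were updated to RefSeq for 10530 of 10543 genes, and upstream sequences are RefSeq's (GRCm38.p6).

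The probe with the highest mean stood for a gene, which was tested where at least 1 of 14 group means lay above the median of all values. Values were not scaled further. Means of all 14 groups were fitted over 41 arrays by limma 3.58.1, run in R 4.3.3, letting the prior variance follow mean intensity, with 27 residual degrees of freedom, and the difference of the ageing effects was a contrast of 4 means, with Benjamini-Hochberg adjustment over 8487 genes at 0.05. The fit was tested on simulated data. Only the number of arrays limits the precision that can be stated, since scanner counts are not used here. Alternatives changed the filter, the scaling, the probe rule, the variance model, the arrays fitted, the middle-aged arrays, the pairing and the cell mixture.

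The genes compared, the 34 lists, the markers and the tests were chosen with earlier results of these data known, so no list is independent evidence. Named were the 12 genes of largest difference in each direction; the 8 in each direction with opposite effects, both past the threshold, and levels above 6.73 in both fractions; up to 4 called members of each list; and a fixed set of thymic genes, of which Foxn1, Dll4, Ptprc and Kitl are not analysed here. Clone names were left out. Rac2, Lyz1, Porcn, Timp3, H2-Eb1, H2-DMb1, H2-Aa, H2-Ob, H2-DMb2, Fos, Jun, Egr1 and Hsp90aa1 were named after their values were seen. Figures were drawn with Python 3.11.15 and matplotlib 3.10.9.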

Additional observations from a re-analysis of the deposited data

Results flagged for a closer look

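Every call in the report is a tested difference between the fractions. Marked out here are the named genes in which, besides, both effects passed the threshold with opposite signs and the 3 middle-aged arrays did not overlap the 3 young arrays in TEC or in nonTEC. Of the 83 genes (0.978% of those tested) with opposite signs and both effects past the threshold, 61 met this, 42 with the rise in TEC and 19 with the rise in nonTEC, and 18 of them are named. The same arrays gave the p-values that chose the 83, so the lack of overlap is no further evidence. Its share among all 8487 genes is not given here.

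With the rise in TEC these were Mzb1 (3.89), Nr1d1 (3.49), Diras2 (3.28), Pik3ap1 (2.79), Rgcc (2.40) and Ngfr (2.12). Fjx1 (2.09), Notch3 (1.93), Snhg18 (1.88), Rilp (1.82) and Ifi27 (0.97) made up the rest of that direction. With the rise in nonTEC they were Igf2 (-1.83), Snurf (-2.23), Sult5a1 (-2.34), Chst1 (-2.38), Rpl7a (-2.59), Hp (-2.75) and Cxcl13 (-3.43). All values are differences of the ageing effects, TEC minus nonTEC, on the log2 scale. Nr1d1, Mzb1 and Pik3ap1 lay below 6.73 on average in at least 1 fraction, so for them at least 1 of the effects was read from dim signals. Ifi27 did not pass with the mean of all its probes, and its lowest estimate over the alternatives was 0.27.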

How the results depend on the processing

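Of the 110 called named genes, 103 kept their direction in every alternative, and the exceptions were H2-DMa (-0.21), H2-Oa (-0.16), H2ac12 (-0.18), H2ac15 (-0.19) and Rrm2 (-0.63) with the pan-leukocyte covariate, and Ndufa7 (-0.12) and Rplp2 (-0.21) with sham arrays. The counts moved by over 1.5 times under these settings, given as genes called, above 0, below 0, and opposite with both effects past the threshold, against 953, 660, 293 and 83. They were 1680, 1025, 655 and 178 with array weights; 114, 80, 34 and 6 with only the 12 unoperated arrays; 1727, 1009, 718 and 169 without the TEC arrays that stand apart (middle-aged 3, sham day 4 array 3, castrated day 4 arrays 2 and 3); and 251, 197, 54 and 4 with the pan-leukocyte covariate. With sham arrays the last count was 24, and without the nonTEC arrays numbered 3 it was 54. Leaving out each of the 12 arrays in turn gave 585 to 1298, 408 to 849, 177 to 558 and 32 to 117. The arrays behind moves of over 1.5 times were young TEC arrays 2 (585, 408, 177 and 32) and 3 (195 below 0, 49 opposite), young nonTEC array 3 (618, 438, 180 and 51), and middle-aged TEC arrays 2 (47 opposite) and 3 (558 below 0). The cause of these moves was not tested. The replicate block over 41 arrays gave 1006 genes. With a replicate block by age over the 12 unoperated arrays, 1 gene was called, 0 above 0 and 1 below, with 1297 at an unadjusted p under 0.05 in limma. Arrays of the same number correlated, after removing group means, at -0.17, 0.07 and 0.02 between young TEC and nonTEC and at -0.10, -0.04 and 0.06 between the middle-aged groups. With 3 arrays in a group, these values can neither show nor exclude pairing by number. The labels do not say whether arrays of the same number share mice. Centring shifted the median of all genes by -0.05 and gave 62.0% of calls above 0, against 69.3%. Depth is unknown, and dim genes and those near 14.9 are the least certain.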

Other observations

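Several lists showed little difference between the fractions. Of 42 genes of cytosolic ribosomal proteins 2 were higher and 0 lower, with a median of 0.00, and Rplp2 (0.63 ± 0.17) and Rps13 (0.60 ± 0.18) were the members called. Of 50 genes of oxidative phosphorylation 2 were higher, the complex I gene Ndufa7 (0.76 ± 0.22) and the ATP synthase gene Atp5l (0.68 ± 0.18), and 1 lower, the complex III gene Uqcrq (-1.15 ± 0.37), with a median of 0.17. Of 13 genes of cholesterol synthesis 1 was higher, Fdps (0.68 ± 0.23), which makes farnesyl pyrophosphate, and 0 lower. Fdps did not pass after quantile normalization of all arrays or after centring each array on its median. In the tuft cell list 0 of 9 were called in either direction by limma, 3 had an unadjusted p under 0.05, and the median was 0.32.

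Genes of the innate response split in both directions. Of 20 acute-phase and inflammatory genes 3 were higher and 4 lower, with a median of -0.12. Besides Lcn2, Il33, Socs3, Hp and Ptx3, the transcription factor gene Cebpd was lower at -2.06 ± 0.62, reading 7.30, 4.57 and 7.46 in middle-aged and 7.25, 7.46 and 7.72 in young TEC, against 8.48, 8.24 and 8.44 in middle-aged and 7.54, 7.32 and 7.23 in young nonTEC. Middle-aged TEC array 2 was the low one by far, and in nonTEC the middle-aged arrays lay above the young ones. Of 29 interferon response genes 1 was higher, Ifi27 (0.97 ± 0.16), and 1 lower, the class I gene H2-K1 (-1.71 ± 0.51), with a median of -0.08. Ifi27 did not pass with the mean of all its probes. H2-K1 read 10.31, 7.95 and 10.81 in middle-aged and 10.60, 10.86 and 10.95 in young TEC, with array 2 again the low one. Neither Cebpd nor H2-K1 passed without middle-aged TEC array 2, and each passed in 20 of the 30 alternatives.

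Of 10 adipocyte and fuel-use genes 2 were lower and 0 higher. The lipid droplet gene Cidea (-1.33 ± 0.39) had a TEC effect of -1.45 ± 0.28, and the lipase gene Pnpla2 (-0.52 ± 0.16) a nonTEC effect of 0.54 ± 0.11. Of 21 antioxidant genes 2 were higher, the glutathione peroxidase gene Gpx2 (0.82 ± 0.27) and the superoxide dismutase gene Sod1 (0.56 ± 0.17), and 0 lower. Neither Gpx2 nor Sod1 passed after centring each array on its median. Of 14 cell cycle inhibitor and senescence genes Cdkn1c alone was called. Of 7 Aire-dependent antigen genes 1 was higher, Csn2, and 0 lower, with a median of -0.08, and of 15 glucocorticoid and androgen target genes 1 was higher and 1 lower, with a median of 0.19. Among the 953 genes called, 380 had more than 1 probe in both fractions, and in 277 of these all probes had a difference of the same sign.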
